A study of Arabidopsis thaliana with 4 samples.

Results

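The genes described here encode 40 of the proteins that let a plant cell wall stretch: 17 expansins and expansin-like proteins, and 23 xyloglucan endotransglucosylase/hydrolases (XTHs). They were chosen by locus name from the EXPA, EXPB, EXLA, EXLB and XTH families, with earlier results of these data known. The set is thus not a blind sample of these families, of which 21 further genes are described below. All 40 were found among the 34133 loci in each deposited file. The set holds 11 alpha-expansins, 2 beta-expansins, 4 expansin-like genes and 23 XTH genes.

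A growing plant cell is held by cellulose microfibrils that are tied together by xyloglucan, a branched glucan. Expansins loosen the contacts between these polymers without cutting them, most strongly when proton pumps have acidified the wall. XTHs cut a xyloglucan chain and either join the end to another chain or hydrolyse it, so they can both loosen and rebuild the network. In leaves, different members of both families act while cells expand, and others respond to touch, shade, hormones or stress. No wall-loosening activity has been established for the expansin-like proteins.

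RNA was sequenced from first leaves of Arabidopsis thaliana after 14 days on Murashige and Skoog plates with 1% sucrose, in a study of why some hybrids outgrow their parents (heterosis). One group was the hybrid labelled Col-0xAk-1, from a cross of the reference accession Col-0 with Ak-1, and the other was the inbred accession Ak-1, with 2 libraries each and no treatment in either. The titles and the strain label say Ak-1, whereas Aa-0 is given as genotype and Ak-0 in the design text; the name of the titles is used. No Col-0 library was analysed here. A Col-0 allele with a level of its own and a change brought about in the hybrid cannot be told apart. Whether the 2 libraries of a group were taken from different plants or pools is not stated in the labels, and the p-values thus cover a spread that may be technical.

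The values are FPKM, fragment numbers scaled by the transcript's length and the library's mapped total, so that levels can be compared between genes. From the steps between the lowest values, sequencing depth was estimated at 1.37 and 1.19 times that of Ak-1 replicate 1 in the hybrid libraries, and at 1.14 times in Ak-1 replicate 2. The hybrid libraries were less alike than the Ak-1 libraries: 74 tested loci differed over 4-fold between the hybrid replicates and 0 between the Ak-1 replicates, on the log2(FPKM + 1) scale, with Pearson's r across loci of 0.968 in the hybrid and 0.990 in Ak-1. Results are therefore given for each library. Leaf genes (RBCS2B, LHCB1.3 and RCA) summed to 35962 and 29586 FPKM in the hybrid, against 25328 and 27953 FPKM in Ak-1, and no shoot apex, root or flower marker of 10 examined exceeded 0.24 FPKM in any library.

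Of the 40 genes, 31 reached a mean of 1 FPKM over the 4 libraries and entered the test, a limma fit of log2(FPKM + 1) over 15905 loci with Benjamini-Hochberg adjustment, called at an adjusted p under 0.05. XTH18 and XTH19 fell in the hybrid, EXLB1 rose, and 28 tested genes were not called. The 2 genes called lower compare with 2.51% of all tested loci called lower, and the 1 called higher with 1.62% called higher. The median log2 difference, hybrid minus Ak-1, was −0.05 over the 31 genes and −0.06 over all tested loci, and 16 of the 31 were below 0, against 57.8% of all tested loci. The median of these 31 genes thus lay close to that of all tested loci.

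**Figure D1:**
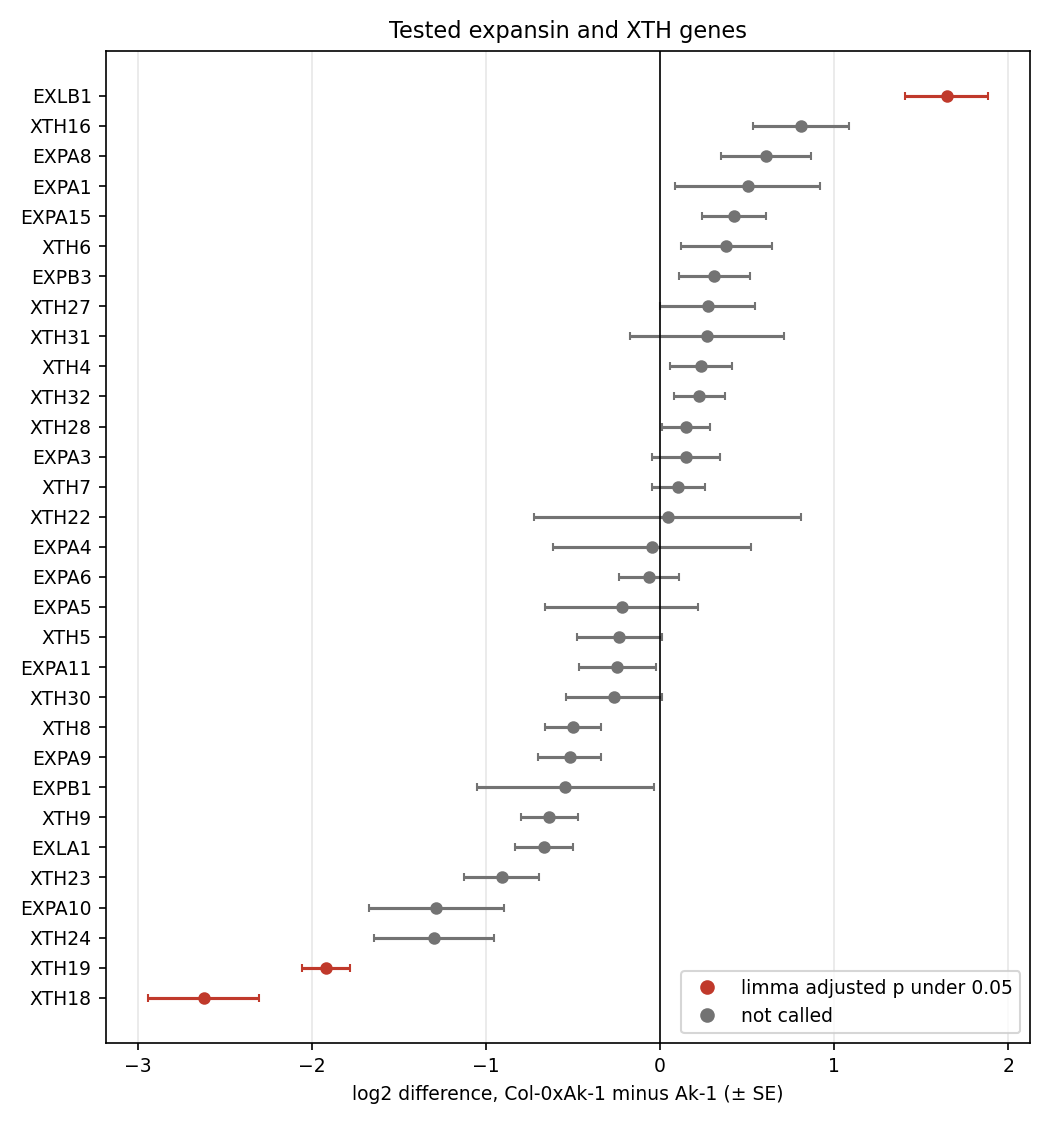
Log2 difference of the hybrid minus Ak-1, on log2(FPKM + 1), for the 31 tested genes, with points at the limma estimate and bars for 1 SE. EXLB1 (1.65) stands at the top and XTH19 (−1.92) and XTH18 (−2.62) at the bottom, the only genes coloured as called.

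XTH18 and XTH19, which belong to a group of closely related enzymes best known from roots, had the lowest hybrid levels relative to Ak-1 of the 31 tested members. XTH18 (AT4G30280) had 0.26 and 1.15 FPKM in the hybrid libraries, against 7.55 and 10.99 FPKM in the Ak-1 libraries. Both hybrid values were far below both Ak-1 values, and the Ak-1 mean was 13.1 times the hybrid mean. The log2 difference was −2.62 (SE 0.32, limma adjusted p = 0.0198, n = 2 libraries per group). XTH19 (AT4G30290) had 3.27 and 2.88 FPKM in the hybrid, against 13.83 and 14.97 FPKM in Ak-1. Its replicates lay close together in both groups and its Ak-1 mean was 4.68 times the hybrid mean. The log2 difference was −1.92 (SE 0.14, limma adjusted p = 0.00707).

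By the estimated depths, the XTH18 values rest on about 7.1 and 27.3 fragments in the hybrid and 150.6 and 250.5 in Ak-1, and those of XTH19 on about 94.3 and 72.1 fragments in the hybrid and 291.7 and 360.7 in Ak-1. The exact size of the XTH18 difference is therefore the less certain of the 2. Its call was lost without a filter on low values (limma adjusted p = 0.0636). Both calls were lost when either Ak-1 library was left out, but in those fits hardly any locus was called. The log2 differences without Ak-1 replicate 1 and without Ak-1 replicate 2 were −2.86 and −2.38 for XTH18. They were −1.97 and −1.87 for XTH19.

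XTH24, XTH18 and XTH19 stand one after another on the minus strand of chromosome 4, at chr4:14819192-14820595, chr4:14825757-14827211 and chr4:14828712-14830224 in the RefSeq annotation of build TAIR10.1, each with 3 exons. XTH24 (AT4G30270), also known as MERI5B from its isolation in meristem tissue, had 19.24 and 37.04 FPKM in the hybrid, against 79.56 and 56.93 FPKM in Ak-1. The groups did not overlap, but the hybrid libraries were 1.93-fold apart, and the log2 difference of −1.30 (SE 0.34, limma adjusted p = 0.127) was not called. The genes on either side of the 3 did not share the direction to that extent. AT4G30260, next to XTH24, had 20.4 and 17.42 FPKM in the hybrid and 21.77 and 23.14 FPKM in Ak-1 (log2 difference −0.24, limma adjusted p = 0.437). AT4G30310, beyond XTH19, had 49.54 and 57.42 FPKM in the hybrid and 50.05 and 48.7 FPKM in Ak-1, and ABCE3, which lies between it and XTH19, was listed at 0 in all 4 libraries.

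**Figure D2:**
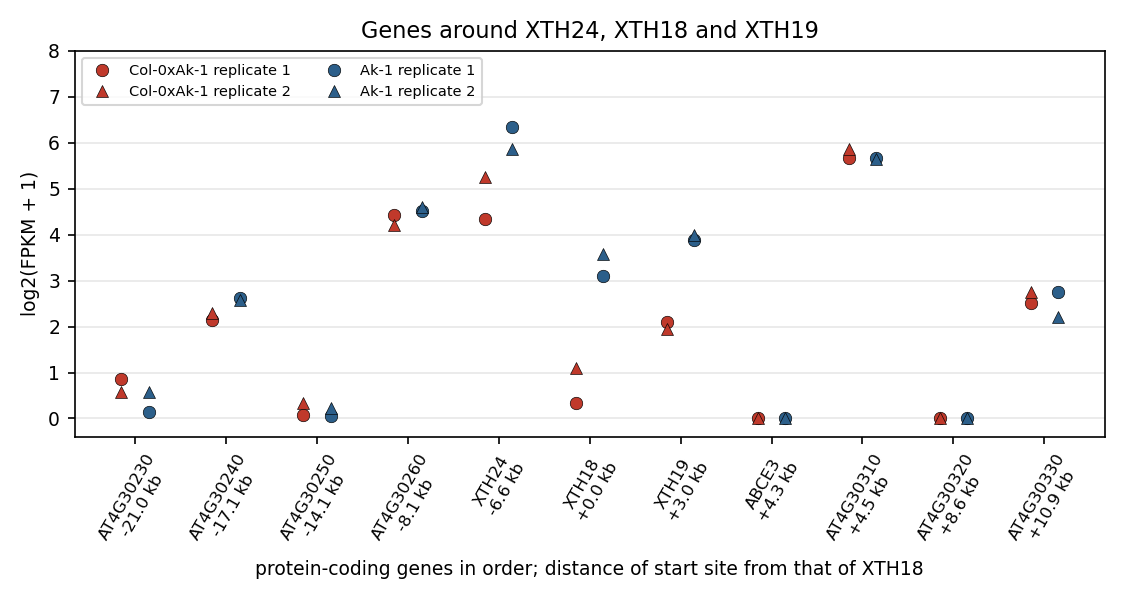
Log2(FPKM + 1) in each library for 11 protein-coding genes in their order around XTH18, hybrid libraries left of Ak-1 libraries at each gene, with the distance between start sites in kb under each name. XTH24, XTH18 and XTH19 are lower in both hybrid libraries than in both Ak-1 libraries, while AT4G30260 at −8.1 kb and AT4G30310 at 4.5 kb lie close together in the 4 libraries.

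How far reads can be told apart between these genes bears on their values. The predicted XTH18 protein was 93.3% identical to XTH17 and 92.1% to XTH19, and the longest stretch of identical bases between the XTH18 and XTH19 transcripts was 68 bases, the longest of any pair of XTH members. XTH24 was more distant, with 66.9% identity to XTH18 and a longest shared stretch of 17 bases. The coding bases around the catalytic motif DEIDFEFLG, which carries the acidic residues that cut xyloglucan, are given for the 5 genes, from RefSeq build TAIR10.1, 5′ to 3′ on the coding strand. Capitals mark the 15 of 51 positions at which the 5 genes are not all the same.

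XTH18: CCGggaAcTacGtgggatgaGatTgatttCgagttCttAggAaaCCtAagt
XTH19: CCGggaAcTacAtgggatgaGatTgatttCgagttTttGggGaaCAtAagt
XTH17: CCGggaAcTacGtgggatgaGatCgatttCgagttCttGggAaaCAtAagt
XTH20: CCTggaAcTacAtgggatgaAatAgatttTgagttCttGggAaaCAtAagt
XTH24: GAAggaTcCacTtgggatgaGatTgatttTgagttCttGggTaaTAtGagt

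Over these 51 bases XTH19 differed from XTH18 at 5 positions, XTH17 (AT1G65310) at 3, XTH20 at 7 and XTH24 at 12. The sources used here do not say how fragments matching several loci were assigned, so the split between XTH17, XTH18 and XTH19 is uncertain. XTH17, which takes part in petiole elongation under shade, was low throughout, at 0.61 and 1.55 FPKM in the hybrid and 0.58 and 0.47 FPKM in Ak-1, with both hybrid values above both Ak-1 values. XTH20 (AT5G48070) was listed at 0 in all 4 libraries. The motif was found letter for letter in 16 of the 23 XTH proteins. A search for DExDxExLG, with x for any residue, found a variant in 6 others (XTH6, XTH7, XTH30, XTH31, XTH32 and XTH33). XTH9 did not match this pattern, and looser variants were not searched for, so the motif is not shown to be absent from it.

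The 250 bases before the annotated starts of XTH18 and XTH19 are shown because both genes fell; capitals mark matches, on either strand, to any of 8 short motifs. These were the G-box CACGTG, the CAMTA-bound forms CGTGTG or CGTGCG, the W-box core TTGAC, the auxin response element TGTCTC, the rapid stress response element CGCGTT, the dehydration-responsive core CCGAC and the TATA-box form TATAAA. Both lie on the minus strand of build TAIR10.1, XTH18 at chr4:14827212-14827461 and XTH19 at chr4:14830225-14830474, and both are written 5′ to 3′ toward the gene.

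XTH18: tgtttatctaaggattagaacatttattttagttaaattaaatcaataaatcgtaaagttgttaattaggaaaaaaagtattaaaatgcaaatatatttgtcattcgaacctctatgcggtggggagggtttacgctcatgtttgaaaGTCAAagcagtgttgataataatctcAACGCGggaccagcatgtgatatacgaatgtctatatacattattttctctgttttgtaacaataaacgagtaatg
XTH19: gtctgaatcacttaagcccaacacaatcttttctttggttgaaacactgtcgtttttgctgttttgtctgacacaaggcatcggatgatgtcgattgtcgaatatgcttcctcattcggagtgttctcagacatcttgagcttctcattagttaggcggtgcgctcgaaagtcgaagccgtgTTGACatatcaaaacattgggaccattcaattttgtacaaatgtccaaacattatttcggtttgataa

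Both windows hold TTGAC, which WRKY factors bind, beginning 102 bases before the XTH18 start (as its reverse complement) and 68 bases before the XTH19 start; 44.9% of 27443 promoters of that length hold it. The XTH18 window also holds CGCGTT, as its reverse complement, which 2.59% of promoters hold. Of the 40 genes 5 (12.5%) held CGCGTT: EXPA6, EXLA1, EXLA3, XTH18 and XTH20. XTH18 and EXLA1 had both hybrid values below both Ak-1 values, and of the 5 only XTH18 was called. EXPA6 (AT2G28950) had overlapping groups, at 23.03 and 17.96 FPKM in the hybrid and 22.58 and 20.08 FPKM in Ak-1. EXLA3 and XTH20 did not exceed 0.21 FPKM in any library. The XTH24 window held 0 matches to any of the motifs. CGTGTG was held by 15% of the 40 genes, against 5.37% of promoters, but not by XTH18, XTH19 or XTH24. The shares were 40% for TTGAC, 55% against 47.3% for TATAAA and 2.5% against 1.57% for CGTGCG. They were 10% against 10.9% for TGTCTC, 5% against 12% for CCGAC and 0 against 6.49% for CACGTG. A match describes letters and does not show binding. The letters are those of the Col-0 build, and Ak-1 sequences were not examined.

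The summed level of touch and rapid stress response genes was also lower in both hybrid libraries. A list of 8 such genes (TCH2, TCH3, CML38, WRKY40, WRKY33, ZAT12, CAF1A and ERF6) summed to 75.9 and 203 FPKM in the hybrid, against 422 and 642 FPKM in Ak-1. In 7 of the 8 both hybrid values were below both Ak-1 values, and in TCH2 the groups overlapped. The list was drawn up with earlier results on these genes known. Its count is thus not an independent comparison with all tested loci, of which 32.6% had both hybrid values below. XTH22, another touch-inducible gene, is not among the 8 and is given below. Limma called ERF6 (log2 difference −3.82, adjusted p = 0.0106), WRKY33 (−2.61, adjusted p = 0.0354) and CML38 (−2.16, adjusted p = 0.0445) lower, and 0 of the 8 higher. Of all tested loci, 2.51% were called lower and 1.62% higher. In other settings with all 4 libraries, the number of these genes called lower went from 1 without a filter on low values to 5 with the replicate number as a block. All 8 were higher in replicate 2 than in replicate 1 in both groups. The 18S ribosomal RNA locus AT3G41768 had 1670 and 4446 FPKM in the hybrid, against 10547 and 7145 FPKM in Ak-1. Their part in the XTH results was not tested. In whole leaves, fewer cells of a type and less RNA per cell cannot be told apart.

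XTH22 (AT5G57560), the touch-inducible gene also called TCH4, had overlapping groups, as TCH2 had, and was likewise higher in replicate 2 in both groups. It had 15.13 and 78.88 FPKM in the hybrid, against 25.68 and 44.36 FPKM in Ak-1. The hybrid values lay on either side of the Ak-1 values and differed 5.21-fold from each other, the largest gap between the hybrid replicates, on the log2(FPKM + 1) scale, of any tested member. The log2 difference of 0.05 had an SE of 0.77. Its closest relative XTH23 (AT4G25810), 84.0% identical, was much lower, at 0.72 and 0.34 FPKM in the hybrid and 1.65 and 2.07 FPKM in Ak-1. These groups did not overlap, but limma did not call the difference (adjusted p = 0.102). XTH25 (AT5G57550), the neighbour of XTH22 on chromosome 5, had 0.26 and 1.04 FPKM in the hybrid and 0.81 and 1.29 FPKM in Ak-1.

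None of the XTH genes with the highest levels in these leaves was called. XTH27 (AT2G01850), known from the development of tracheary elements in leaf veins, had the highest XTH level, with 95.64 and 162.90 FPKM in the hybrid and 107.41 and 98.94 FPKM in Ak-1. XTH7 (AT4G37800) had 94.59 and 94.05 FPKM in the hybrid and 95.12 and 80.62 FPKM in Ak-1, and XTH4 (AT2G06850), which was first described as an endoxyloglucan transferase, had 83.34 and 109.37 FPKM in the hybrid and 82.49 and 79.44 FPKM in Ak-1. XTH6 (AT5G65730) had 62.48 and 103.75 FPKM in the hybrid and 63.34 and 60.02 FPKM in Ak-1. XTH27, XTH6 and XTH4 were each higher in hybrid replicate 2 than in the other 3 libraries. The order of XTH7 and XTH4 was not resolved by their spread, and neither was that of XTH32 and XTH24, the next 2.

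Among the remaining XTH genes, XTH32 (AT2G36870, with 51.62 and 58.35 FPKM in the hybrid, 49.09 and 44.59 in Ak-1), XTH28 (AT1G14720, with 17.70 and 19.90 in the hybrid, 17.07 and 16.52 in Ak-1) and XTH16 (AT3G23730, with 4.91 and 9.0 in the hybrid, 3.08 and 3.71 in Ak-1) had both hybrid values above both Ak-1 values. XTH9 (AT4G03210), which is active in shoot tips, had both hybrid values below, at 6.41 and 5.26 FPKM against 10.35 and 8.85 FPKM in Ak-1, as did XTH8 (AT1G11545), at 1.73 and 1.89 FPKM in the hybrid and 3.20 and 2.75 FPKM in Ak-1. None of these 5 was called. XTH31 (AT3G44990), which in Arabidopsis is known for xyloglucan hydrolysis, had 35.20 and 13.06 FPKM in the hybrid and 18.56 and 16.89 FPKM in Ak-1, so the hybrid values again enclosed those of Ak-1. XTH5 (AT5G13870, with 1.67 and 1.95 FPKM in the hybrid, 1.68 and 3.06 in Ak-1) and XTH30 (AT1G32170, with 2.04 and 4.11 in the hybrid, 3.50 and 3.96 in Ak-1) were low with overlapping groups. In all, 2 of 17 tested XTH genes were called lower and 0 higher by limma, against 2.51% and 1.62% of all tested loci. At an unadjusted p under 0.05, 6 were lower and 1 higher, against 12.6% and 7.61% of all tested loci, and their median log2 difference was 0.05.

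**Figure D3:**
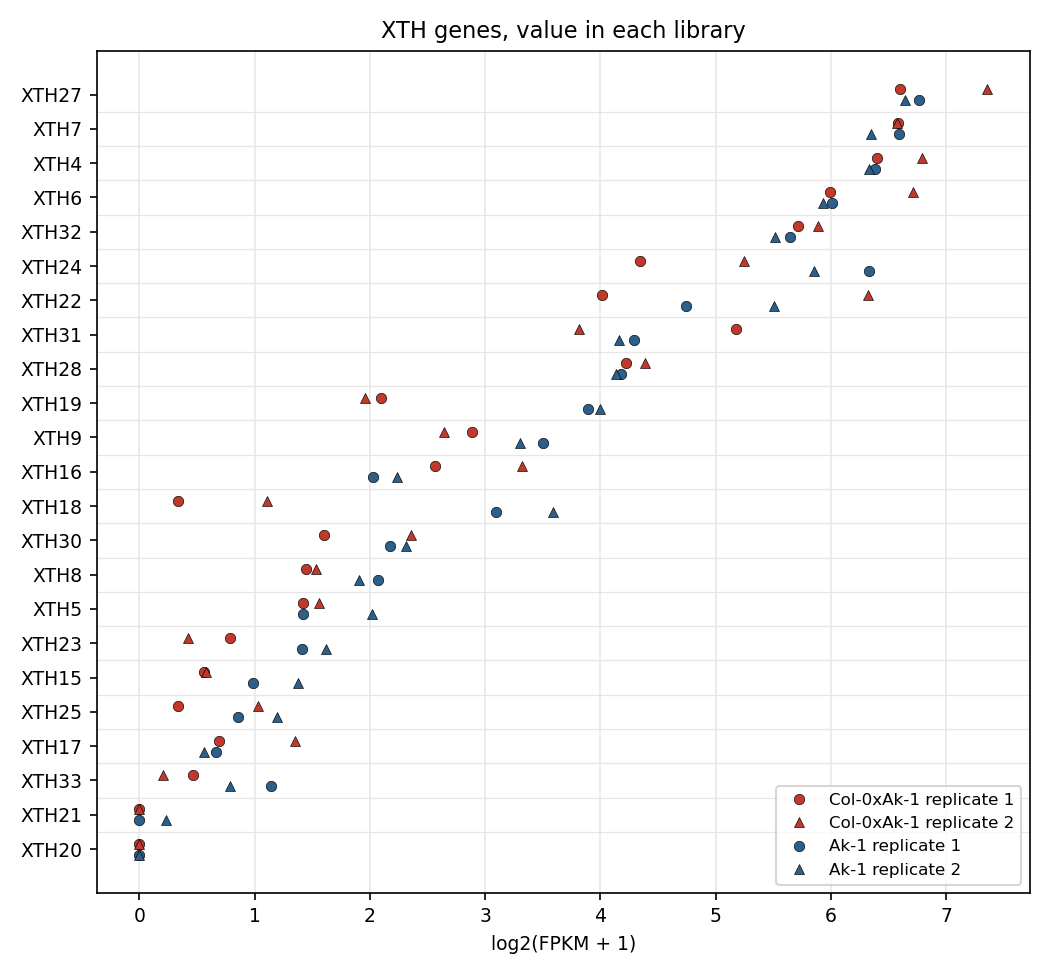
Log2(FPKM + 1) of the 23 XTH genes in each library, ordered by mean level, hybrid libraries (red) drawn above Ak-1 libraries (blue), circles for replicate 1 and triangles for replicate 2. XTH18 and XTH19 show the hybrid libraries to the left of the Ak-1 libraries, and XTH22 shows them on both sides.

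EXLB1 (AT4G17030), the only expansin-like B gene of the species, was the 1 member that rose. It had 9.16 and 13.73 FPKM in the hybrid libraries, against 2.47 and 3.40 FPKM in the Ak-1 libraries. Both hybrid values were above both Ak-1 values, and the hybrid mean was 3.90 times the Ak-1 mean. The log2 difference was 1.65 (SE 0.24, limma adjusted p = 0.030). The call was lost without a filter on low values (limma adjusted p = 0.0819). It was also lost without hybrid replicate 2 (log2 difference 1.38), and without Ak-1 replicate 1 (1.48) or 2 (1.82), while the direction held in these settings. Without an Ak-1 library, hardly any locus was called. The protein resembles no other expansin or expansin-like member closely (at most 35.5% identity). Its transcript shared no run of 12 or more bases with its closest relative EXLA2. The longest run shared with any of these members was 15 bases, with EXPA3 and with EXPA6.

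EXLB1 lies on the minus strand of chromosome 4 at chr4:9581562-9583290 in build TAIR10.1, with 4 exons. The 250 bases before its start, at chr4:9583291-9583540, are shown because it is the gene that rose; they are written 5′ to 3′ toward the gene, with the same motifs in capitals.

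EXLB1: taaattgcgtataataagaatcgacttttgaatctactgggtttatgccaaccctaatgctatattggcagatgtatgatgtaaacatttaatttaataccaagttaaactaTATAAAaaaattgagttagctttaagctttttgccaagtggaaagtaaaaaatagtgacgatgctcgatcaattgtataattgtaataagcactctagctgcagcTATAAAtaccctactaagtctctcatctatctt

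The capitals are a pair of TATAAA matches, one of them beginning 33 bases before the start; 47.3% of promoters hold that motif. The gene before it, AT4G17020, had 4.54 and 3.27 FPKM in the hybrid and 5.4 and 5.07 FPKM in Ak-1, and CLPR4 on the other side had 141.93 and 146.15 FPKM in the hybrid and 139.06 and 138.18 FPKM in Ak-1. Neither flanking gene was called (limma adjusted p = 0.349 and 0.865). Of the 5 genes on each side, RLM3 (AT4G16990), a TIR-domain immunity gene whose start lies at −24.7 kb on the chromosome relative to that of EXLB1, was called. RLM3 had 38.0 and 62.5 FPKM in the hybrid, against 0 and 0.02 FPKM in Ak-1 (log2 difference 5.62, limma adjusted p = 0.00228), the same direction as EXLB1. Build TAIR10 represents Col-0, and whether Ak-1 reads match it equally well at these genes was not tested.

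The expansin-like A genes were low. EXLA1 (AT3G45970) had 1.52 and 1.22 FPKM in the hybrid, against 2.85 and 2.65 FPKM in Ak-1, with no overlap between the groups but no call (limma adjusted p = 0.114). EXLA2 (AT4G38400) had 0.54 and 1.61 FPKM in the hybrid and 0.72 and 0.54 FPKM in Ak-1. EXLA3 (AT3G45960) was listed at 0 and 0.05 FPKM in the hybrid and at 0 and 0.21 FPKM in Ak-1; it stands next to EXLA1 on chromosome 3, is 86.3% identical to it as a protein, and shares a stretch of 57 bases with it.

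Alpha-expansins, the class that loosens leaf cell walls, were dominated by 2 genes. EXPA1 (AT1G69530), which is known from leaf growth and stomatal opening, had 455.04 and 189.25 FPKM in the hybrid, against 211.69 and 202.10 FPKM in Ak-1. Hybrid replicate 1 was thus 2.40 times hybrid replicate 2, whose value was below both Ak-1 values. EXPA8 (AT2G40610) had 291.16 and 177.95 FPKM in the hybrid, against 143.55 and 154.51 FPKM in Ak-1. Both hybrid values were above both Ak-1 values, by a small margin in replicate 2, and the gene was not called (limma adjusted p = 0.279). EXPA1 made up 50.5% and 40.3% of alpha-expansin FPKM in the hybrid libraries, against 37.2% and 40% of it in the Ak-1 libraries.

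EXPA10 (AT1G26770), whose level has been shown to set leaf size in Arabidopsis, had 30.77 and 25.50 FPKM in the hybrid, against 103.86 and 46.59 FPKM in Ak-1. The groups did not overlap, but the Ak-1 libraries differed more than 2-fold from each other. The log2 difference of −1.28 (SE 0.39, limma adjusted p = 0.159) was not called. It was the only tested member whose Ak-1 replicates differed by at least 1 on the log2(FPKM + 1) scale, against 0.314% of all tested loci. EXPA9 (AT5G02260) also had both hybrid values below both Ak-1 values, at 2.44 and 2.09 FPKM in the hybrid and 3.19 and 4.20 FPKM in Ak-1, without a call. EXPA15 (AT2G03090) had both above, at 2.92 and 2.35 FPKM in the hybrid and 1.49 and 1.93 FPKM in Ak-1, also without a call.

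EXPA4 and EXPA5 were split in the hybrid. EXPA4 (AT2G39700) had 17.08 and 4.26 FPKM in the hybrid, against 9.63 and 8.53 FPKM in Ak-1. EXPA5 (AT3G29030), which is known from brassinosteroid-dependent growth, had 13.82 and 4.87 FPKM in the hybrid, against 9.15 and 10.64 FPKM in Ak-1. In both, hybrid replicate 1 was above the Ak-1 values and hybrid replicate 2 below them. EXPA11 (AT1G20190, with 44.41 and 29.80 FPKM in the hybrid, 46.06 and 40.68 in Ak-1), EXPA6 and EXPA3 (AT2G37640, with 20.91 and 14.97 in the hybrid, 16.74 and 15.08 in Ak-1) had overlapping groups. None of the 10 tested alpha-expansins was called by limma, and 2 were lower and 0 higher at an unadjusted p under 0.05, against 12.6% lower and 7.61% higher among all tested loci. Their median log2 difference was −0.05; after median-of-ratios scaling it was 0.01 and after quantile normalization 0.05, so no direction is given for the group.

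**Figure D4:**
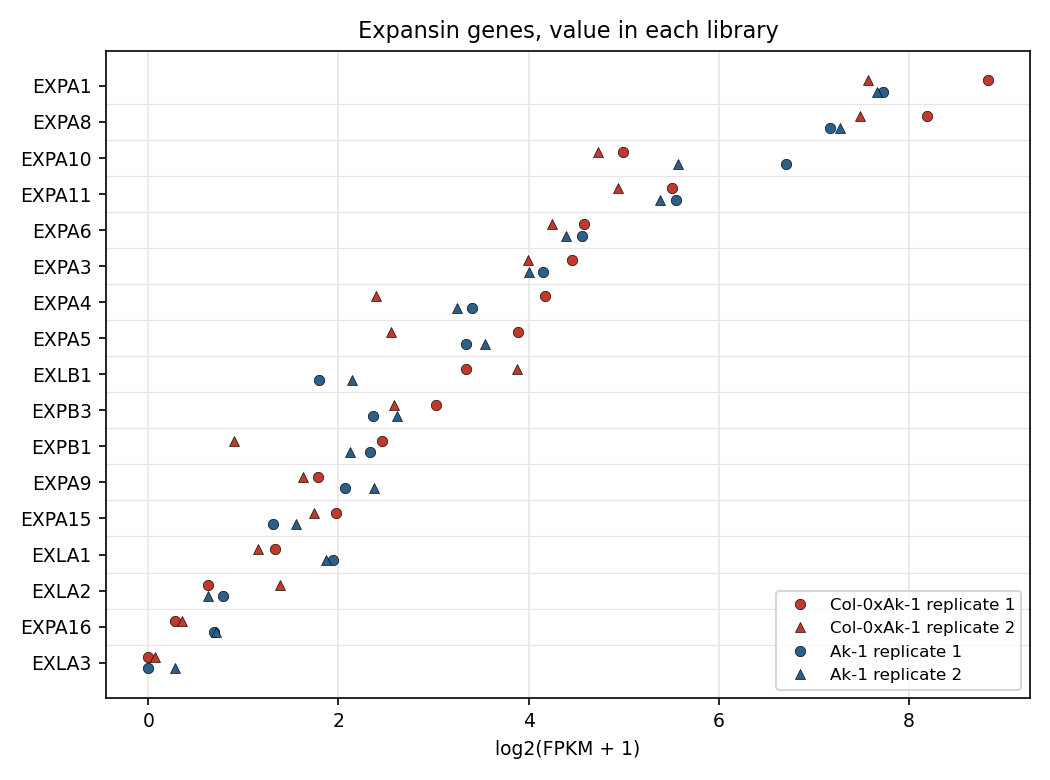
Log2(FPKM + 1) of the 17 expansin and expansin-like genes in each library, ordered by mean level, hybrid libraries (red) drawn above Ak-1 libraries (blue), circles for replicate 1 and triangles for replicate 2. In EXPA1, EXPA4, EXPA5 and EXPB1 the red circle lies well to the right of the red triangle, while the blue points lie close together.

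Neither of the beta-expansins was called. EXPB1 (AT2G20750) had 4.51 and 0.87 FPKM in the hybrid, against 4.03 and 3.35 FPKM in Ak-1, so that only hybrid replicate 2 stood apart. EXPB3 (AT4G28250) had 7.14 and 5.0 FPKM in the hybrid, against 4.16 and 5.14 FPKM in Ak-1.

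The median difference between the hybrid libraries had opposite signs in the alpha-expansins and the XTH genes. All 10 tested alpha-expansins, and 13 of 14 tested expansins and expansin-like genes, were higher in hybrid replicate 1 than in hybrid replicate 2, with EXLB1 the exception, against 43.9% of all tested loci. Of the 17 tested XTH genes, 5 (29.4%) were higher in replicate 1, also against 43.9% of all tested loci, and 12 in replicate 2. Most of all tested loci were higher in replicate 2 as well, so the XTH direction is that of the majority. The median difference, replicate 2 minus replicate 1 on the log2(FPKM + 1) scale, was −0.51 for alpha-expansins, 0.17 for XTH genes and 0.05 for all tested loci. Between the Ak-1 libraries the same medians were −0.10, −0.05 and −0.04. These counts describe 2 libraries and were not tested.

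Hybrid replicates differed by at least 1 on the log2(FPKM + 1) scale for 6 of 31 tested members, against 4.03% of all tested loci. EXPA1, EXPA4, EXPA5, EXPB1 and XTH31 were higher in replicate 1, and XTH22 was higher in replicate 2. Against the Ak-1 mean, the alpha-expansin median difference was 0.41 for hybrid replicate 1 but −0.38 for hybrid replicate 2. The XTH median difference was −0.31 for hybrid replicate 1 but 0.10 for hybrid replicate 2. The direction of both medians thus depended on the hybrid library taken. With 1 hybrid library left out, the spread comes from the similar Ak-1 pair alone, and the lone hybrid library is assumed to vary like it. Without hybrid replicate 2, EXPA1 was called higher (log2 difference 1.13, limma adjusted p = 0.0427), in a fit that called 1.23% of all tested loci higher and 2.26% lower. Without hybrid replicate 1, XTH16 was called higher (1.19, adjusted p = 0.0402), and EXPB1 (−1.32, adjusted p = 0.0348) and XTH23 (−1.09, adjusted p = 0.0470) were called lower, in a fit that called 3.52% of all tested loci higher and 4.72% lower.

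**Figure D5:**
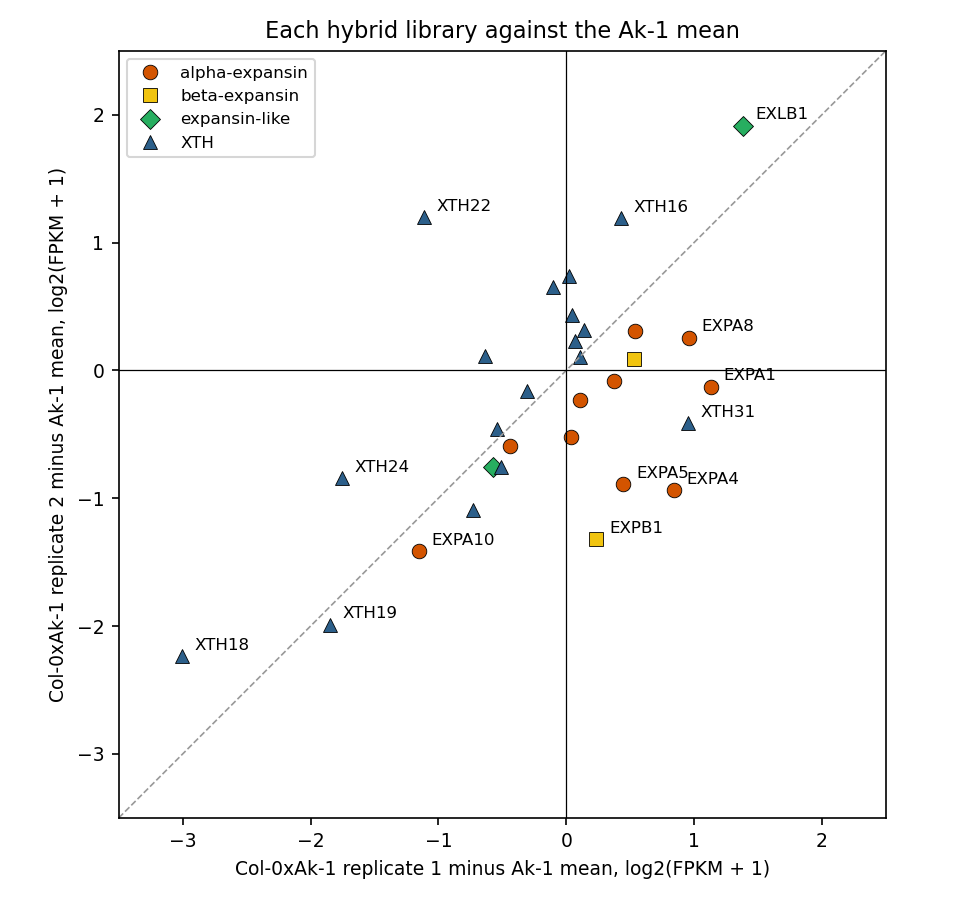
Difference from the Ak-1 mean in hybrid replicate 1 (horizontal) and hybrid replicate 2 (vertical), both on log2(FPKM + 1), for the 31 tested genes, marked by class; the dashed line is where the replicates are equal. All 10 alpha-expansins lie below the line and 12 of 17 XTH genes above it, and XTH18, XTH19 and EXLB1 lie on the same side of 0 in both libraries.

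Summed over the 11 alpha-expansins, hybrid replicate 1 had 902 FPKM and hybrid replicate 2 had 469 FPKM, against 569 and 505 FPKM in the Ak-1 libraries. The 23 XTH genes summed to 498 and 707 FPKM in the hybrid, against 587 and 553 FPKM in Ak-1. For both sums the hybrid values lay on either side of the Ak-1 values. With 2 libraries per group the smallest two-sided p of an exact permutation test is 0.333, so these sums were not tested.

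Both hybrid libraries were above the Ak-1 mean for 10 of the 31 tested genes and below it for 10, and they were on opposite sides for 11. Of the 31, 7 had both hybrid values above both Ak-1 values, against 20.5% of all tested loci, and 9 had both below, against 32.6%. These shares were close to those of all tested loci.

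The 9 genes with means under 1 FPKM were not tested. EXPA16 (AT3G55500) had 0.21 and 0.28 FPKM in the hybrid and 0.61 and 0.64 FPKM in Ak-1. XTH15 (AT4G14130), which like XTH17 is known from petiole elongation under shade, had 0.47 and 0.49 FPKM in the hybrid and 0.98 and 1.59 FPKM in Ak-1. XTH33 (AT1G10550), an XTH held at the plasma membrane, had 0.38 and 0.15 FPKM in the hybrid and 1.21 and 0.72 FPKM in Ak-1. In these 3 the hybrid values were both below the Ak-1 values, and in XTH17 they were both above. XTH21 (AT2G18800), known from root growth, was listed at 0 in 3 libraries and at 0.17 FPKM in Ak-1 replicate 2; the other untested genes are EXLA2, EXLA3, XTH20 and XTH25, given above.

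A further 21 expansin and XTH genes, which are no members of the set, were low in these leaves. Only EXPA13 reached a mean of 1 FPKM, with 4.27 and 3.16 FPKM in the hybrid and 3.76 and 4.74 FPKM in Ak-1 (limma adjusted p = 0.707). The 0 calls in that list thus come from 1 tested gene, which also had an unadjusted p of 0.445. Of the 21, 7 were listed at 0 in all 4 libraries, and the root hair genes EXPA7 and EXPA18 did not exceed 0.05 FPKM.

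Genes that make and trim the xyloglucan on which XTHs act, and genes of cellulose synthesis and wall acidification, formed a further list of 18, all of them tested. CSLC4, the glucan synthase that makes the xyloglucan backbone, fell. It had 16.19 and 16.54 FPKM in the hybrid, against 30.57 and 30.85 FPKM in Ak-1. The replicates were almost equal within each group, and the log2 difference was −0.87 (SE 0.13, limma adjusted p = 0.0327). With the replicate number as a block, the adjusted p was 0.0765. The call was also lost without a filter on low values (limma adjusted p = 0.0505). So it was without hybrid replicate 2 (log2 difference −0.88), and without Ak-1 replicate 1 (−0.88) or 2 (−0.86). Without an Ak-1 library, hardly any locus was called.

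Of the 18 genes 1 was called lower and 0 higher by limma, against 2.51% and 1.62% of all tested loci. At an unadjusted p under 0.05, 5 were lower and 0 higher, against 12.6% and 7.61% of all tested loci. The list's median log2 difference was −0.26, against −0.06 for all tested loci, and 10 of 18 had both hybrid values below both Ak-1 values, against 32.6%. The median stayed below 0 after median-of-ratios scaling (−0.19) and quantile normalization (−0.18). This list, too, was chosen with earlier results of these data known. Its counts and median are thus not an independent comparison with all tested loci.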

How the data were processed

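FPKM values were used as the authors deposited them, 1 value per locus and library to 2 decimals. Cufflinks 2.0.2, edgeR 3.12.0, TopHat and TopHat2 2.0.8b, with build TAIR10, are listed in the submitters' processing notes; the sources used here do not say which tool made the values or how multiply matching reads were assigned. Per the labels' protocols, total RNA went into TruSeq RNA kit V2 libraries. That kit does not mark strand, and no member was overlapped over 80% or more by another locus. The largest overlap among members was 27.8%, for XTH15. Among the touch genes, overlap reached 100% of the shorter locus for WRKY33 and TCH3, and 67.6% for TCH2. Each of these 3 overlapped a locus on the opposite strand, so their values may hold reads from it.

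FPKM are not counts, so log2(FPKM + 1) was fitted with limma 3.58.1 in R 4.3.3 for the 15905 loci whose mean reached 1 FPKM. The contrast was hybrid minus Ak-1 without covariates, tested two-sided with a mean-variance trend. Fold changes on this scale understate those of low genes. The fit had 2 residual and 3.18 prior degrees of freedom. It was also run on simulated data that gave every locus and both groups the same spread. That run does not cover the unequal spread of the hybrid and Ak-1 pairs, or changes in low genes.

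Depth was estimated from the steps of low FPKM, assuming RefSeq exon lengths: 66.7% to 72.0% of low values came within 0.2 of a whole fragment, where 40% would if unrelated. Fragment numbers are estimates.

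Names, sequences and coordinates come from RefSeq TAIR10.1, read by locus name, since the deposited files hold no coordinates, and all 40 members matched. That build represents Col-0, so the printed sequences and shared stretches may differ in Ak-1. Identities are shares of aligned residues in global alignments of translated coding sequences (Biopython 1.88).

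Statistics were given for called members and those with a log2 difference of at least 1 either way; other adjusted p-values were added where a sentence needed one. Members, lists and alternatives were chosen with earlier results of these data known.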

Additional observations from a re-analysis of the deposited data

How the results depend on the processing

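In 12 other settings the directions of XTH18, XTH19, EXLB1, EXPA10, XTH24 and CSLC4 were kept wherever they could be fitted; XTH18 was not among the loci whose mean reached 5 FPKM. Log2 differences ranged from −3.78 to −2.24 for XTH18, from −2.19 to −1.82 for XTH19 and from 1.38 to 1.92 for EXLB1, with limma adjusted p of 0.010 to 0.193, 0.00711 to 0.128 and 0.0194 to 0.235.

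As reported, 257 loci were called higher and 400 lower, with 1 member higher, 2 members lower and 1 gene of the wall list lower. With no filter on low values, 0 members were called higher and 1 lower, 0 genes of the wall polysaccharide list were lower, and 173 of all loci were lower. At a minimum mean of 5 FPKM, 92 loci were higher and 206 lower, and 1 member was lower. When each library was left out in turn, 3 to 560 loci were called higher and 1 to 751 lower, 0 to 2 members were higher and 0 to 4 lower, and 0 to 2 genes of the wall list were lower; the fewest calls came without an Ak-1 library, which leaves the hybrid libraries to give the spread.

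The labels do not say whether libraries with the same replicate number were handled together. The replicate 1 minus replicate 2 differences of the groups correlated at r = −0.14 over 15905 loci, which does not settle it. The listed touch genes and XTH22 were higher in replicate 2 in both groups. With the replicate block, 200 loci were higher and 365 lower, 1 member was higher and 2 were lower, and 0 genes of the wall list were lower, the loss of CSLC4. With the numbers crossed, a setting chosen after seeing the data, 262 loci were higher and 439 lower, and 1 member was higher and 3 lower, the third being XTH24.

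With 2 libraries per group, and fewer than 30 estimated fragments behind XTH18 in each hybrid library, small differences in low genes could not be detected.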
